A study of Sus scrofa with 8 samples.

Results

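Mucosa of the control neobladder (MN-Ctrl) was compared with normal peritoneum (NP) by messenger RNA sequencing of pig tissue. The comparison used 4 of the 8 libraries of the series, 2 of each group, assigned by their labels. Mucosa of the normal bladder (MNB) and of the experimental neobladder (MN-Exp) was not compared here. Those libraries entered the choice of genes tested, the scaling of counts, the adjustment for gene length and the estimate of spread. All samples came from Guizhou minipigs aged 8 months, with no genotype or drug named for either group. Neobladders are urinary reservoirs that surgeons build from bowel. The labels give neither the lining of the control neobladder nor the time from surgery to sampling, nor the part of the peritoneum sampled. Nothing in them says that the libraries of a group came from different animals, so the p-values measure only the spread between these samples, which may be technical.

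Ileal mucosa is an absorptive epithelium whose enterocytes carry a brush border of microvilli. It takes up bile acids, sugars, peptides and lipids, and shelters many lymphocytes and plasma cells. Peritoneum is a serous membrane, a single sheet of mesothelial cells on a thin bed of connective tissue with fibroblasts, collagen, elastic fibres, vessels and fat. Samples of both kinds hold several cell types, so fewer cells of a type and less RNA per cell cannot be told apart in these bulk libraries.

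Levels are counts per M counts of a library (CPM) after TMM normalisation, the trimmed mean of M-values. A gene was called higher or lower in MN-Ctrl at a Benjamini-Hochberg adjusted p under 0.05 in edgeR's quasi-likelihood test over 16549 genes. Fold changes are log2, MN-Ctrl minus NP, with their standard error (SE). Of these genes, 3577 were higher and 3416 were lower in MN-Ctrl, which is 21.6% and 20.6% of those tested and 42.3% together. Library totals were 10.96 and 11.88 M counts in MN-Ctrl, against 7.94 and 9.27 M in NP, and TMM factors were 0.839 and 0.449 in MN-Ctrl, against 1.239 and 1.214 in NP. On library totals alone, without these factors, the median over all genes shifted to -0.96, against -0.06 with TMM, and 24.9% of the calls were higher in MN-Ctrl, against 51.2% with TMM. A call is described as kept where the gene was called in the same direction with a gene-length offset and with each of the 4 libraries left out in turn. That held for 1870 higher and 1772 lower genes, 11.3% and 10.7% of those tested. Each gene given below as higher or lower kept its call in this sense, and its libraries did not overlap between the groups, unless stated.

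The markers chosen for the comparison differed between the groups. They were chosen with earlier results of these data known, so the difference describes the groups and is no test of them. FABP6, the ileal bile acid binding protein, had 31351 and 157528 CPM in MN-Ctrl, against 43.6 and 39.1 CPM in NP, a log2 fold change of 11.16, SE 1.21 (edgeR adjusted p = 9.16e-05). It took 2.63% and 7.07% of all counts in the MN-Ctrl libraries. HNF4A, a nuclear receptor of gut and liver epithelium, had 252 and 129 CPM in MN-Ctrl, against 0 and 0 CPM in NP. BTNL2, a butyrophilin-like protein, had 717 and 252 CPM in MN-Ctrl, against 0 and 0 CPM in NP. With no count in either NP library, HNF4A was at least 1337-fold higher and BTNL2 at least 3398-fold higher in MN-Ctrl, set against a floor of 3 counts over both NP libraries. In the other direction, ALDH1A2, an enzyme that makes retinoic acid in mesothelium, had 0.98 and 0.749 CPM in MN-Ctrl, against 139 and 129 CPM in NP, a log2 fold change of -7.23, SE 0.46 (edgeR adjusted p = 1.68e-05). EPYC, a small leucine-rich proteoglycan, had 0 and 0 CPM in MN-Ctrl, against 76.7 and 97.3 CPM in NP, and was at least 421-fold lower. Of the 17 ileal markers, 15 were tested and all 15 were higher in MN-Ctrl, with summed levels of 52680 and 184500 CPM in MN-Ctrl, against 57.1 and 63.8 CPM in NP. FABP6 alone gave 31351 and 157528 CPM of these MN-Ctrl sums. Of the 15 peritoneal markers, 9 were tested and all 9 were lower, with summed levels of 484 and 509 CPM in MN-Ctrl, against 10460 and 15780 CPM in NP. In the longer mesothelium family of 17 tested, 8 were lower and 4 higher, with 8 and 2 kept. The higher ones with kept calls were KRT18, a keratin of simple epithelia, and TCF21, a mesenchymal factor. KRT18 had 76.4 and 109.8 CPM in MN-Ctrl, against 3.06 and 1.51 CPM in NP. TCF21 had 23.6 and 25.1 CPM in MN-Ctrl, against 1.63 and 3.65 CPM in NP. CALB2 and KLK11 had no count in any of the 4 libraries, and MSLN, UPK3B, LRRN4 and PRG4, not matched by symbol, were not analysed here.

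**Figure D1:**
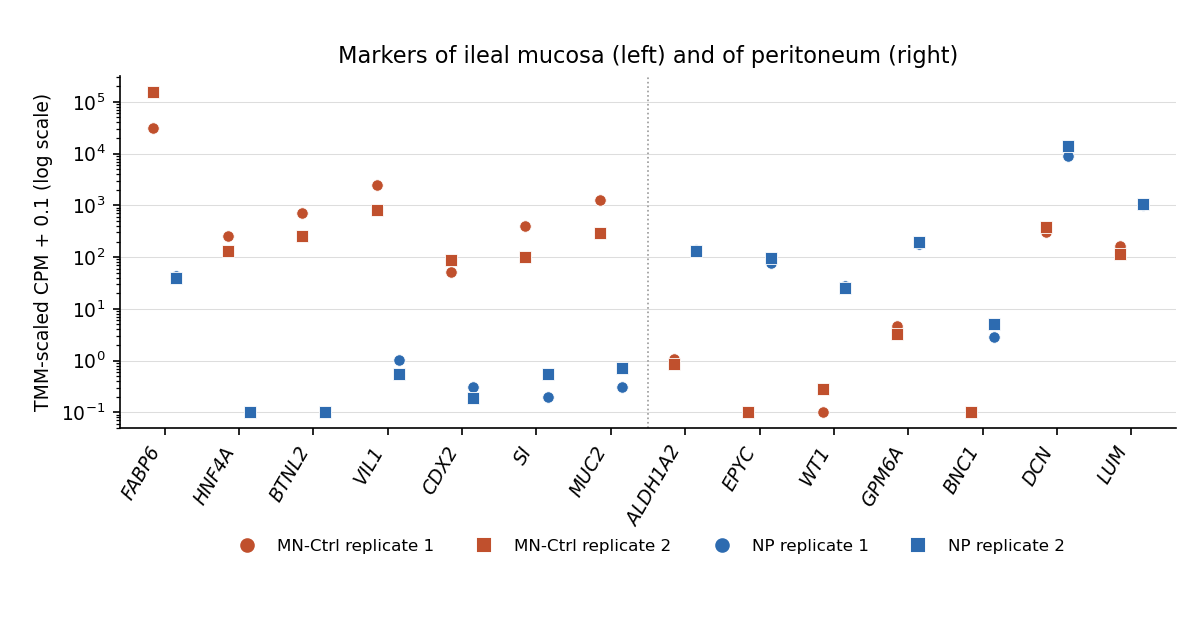
Level of 7 markers of ileal mucosa and 7 of peritoneum in each of the 4 libraries, as TMM-scaled CPM plus 0.1 on a log axis, with MN-Ctrl in orange to the left of NP in blue and the replicates as circles and squares. The groups do not overlap for any of the 14 genes, and points at 0.1 are libraries with no count.

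Several marker lists of other cell types moved with the comparison, and their part in the gene groups described below was not tested. Endothelial markers were lower in MN-Ctrl for 5 of 5 tested, with summed levels of 187 and 101 CPM in MN-Ctrl, against 1957 and 1468 CPM in NP. Adipocyte markers were lower for 4 of 5, with 69.4 and 49.5 CPM in MN-Ctrl, against 1191 and 777 CPM in NP, and PLIN1 had no count in MN-Ctrl. The longer adipocyte family had 5 lower and 3 higher of 14 tested, with 5 and 1 kept. B and plasma cell markers were higher for 5 of 5, with 3103 and 9119 CPM in MN-Ctrl, against 16.2 and 15.2 CPM in NP. T cell markers were higher for 4 of 4, with 271 and 454 CPM in MN-Ctrl, against 27 and 36.8 CPM in NP. Macrophage markers were higher for 4 of 6 and lower for 1. They summed to 2390 and 5279 CPM in MN-Ctrl, against 768 and 1015 CPM in NP. Blood cell markers had no call and summed to 10.7 and 111 CPM in MN-Ctrl, against 33.8 and 27.7 CPM in NP. Smooth muscle markers were higher for 2 of 6 and lower for 0, with 1001 and 1033 CPM in MN-Ctrl, against 1227 and 1157 CPM in NP. The longer contractile family had 2 higher and 3 lower of 18 tested, with 2 and 2 kept and with 8 lower without MN-Ctrl replicate 1, 5 with the gene-length offset and 10 on library totals alone. Pancreatic markers summed to 0.218 and 3.94 CPM in MN-Ctrl, against 1.94 and 0.98 CPM in NP, and PNLIP, PRSS2 and CELA2A were at 0 in all 4 libraries.

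The MN-Ctrl replicates differed from each other with gene length. Across 11643 genes with a known genomic span, replicate 1 minus replicate 2 correlated with span at a Spearman rho of 0.32 in MN-Ctrl and -0.01 in NP, a description over genes that share their libraries. In 20 bins of span, the median difference between MN-Ctrl replicates ran from -1.06 in the shortest genes to 0.46 in the longest, with 0.59 as its highest, while in NP it stayed between -0.06 and 0.07. The comparison of the groups also had a slope with span, at a rho of -0.23. It was -0.28 without MN-Ctrl replicate 1, -0.14 without MN-Ctrl replicate 2 and -0.02 with the gene-length offset. The offset takes the trend with span off each library, so the -0.02 follows from its design. It would also take off a difference between the tissues that runs with span. Among the 3881 shortest genes, under 17.23 kb, 31.4% were higher and 14% lower in MN-Ctrl. Among the 3881 longest, from 55.08 kb up, 15% were higher and 29.1% lower. With the offset, 971 of the short genes were higher and 732 lower, and 919 of the long genes were higher and 765 lower. These narrower gaps also follow from how the offset is built. Families of short genes, such as the ribosomal proteins with a median span of 4.12 kb, and of long genes, such as the cadherins with 86.11 kb, are described with their kept members.

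**Figure D2:**
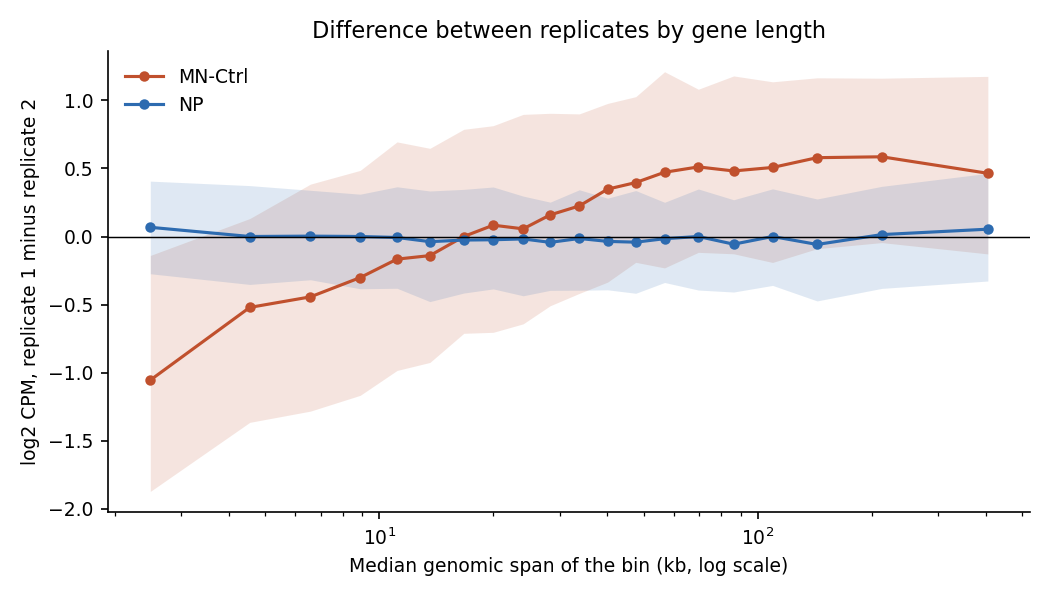
Median difference in log2 CPM between replicate 1 and replicate 2 (lines) with its quartiles over genes (bands), in 20 bins of 566 to 583 genes ordered by genomic span in kb on a log axis, for MN-Ctrl in orange and NP in blue. The MN-Ctrl line climbs from -1.06 in the shortest genes to 0.46 in the longest, with 0.59 as its highest point, and the NP line lies between -0.06 and 0.07.

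Carriers of bile acids and of sugars were mostly higher in MN-Ctrl. SLC10A2, which imports bile acids across the ileal brush border, had 728 and 426 CPM in MN-Ctrl, against 0.102 and 0.267 CPM in NP. SLC51B, a subunit of the basolateral bile acid exporter, had 585 and 2169.9 CPM in MN-Ctrl, against 0.917 and 1.25 CPM in NP. SLC51A, the other subunit, had 532 and 630.1 CPM in MN-Ctrl, against 0 and 2.5 CPM in NP. With FABP6, the importer, the intracellular binding protein and the exporter of the bile acid route were all higher, the carriers at log2 fold changes of 8.81 to 11.49 (edgeR adjusted p of 1.68e-05 to 0.000181). Of 20 sugar carriers tested out of 22 in the files, 11 were higher and 3 lower in MN-Ctrl, and all 14 kept their calls. SLC5A1, the sodium-coupled glucose importer of enterocytes, had 2212 and 580.5 CPM in MN-Ctrl, against 4.99 and 4.54 CPM in NP. SLC2A2, their basolateral glucose carrier, had 109 and 50.0 CPM in MN-Ctrl, against 0 and 0.356 CPM in NP. SLC2A10 and SLC2A4, the insulin-responsive glucose carrier of fat and muscle, were lower. SLC2A10 had 0.98 and 0.562 CPM in MN-Ctrl, against 11.2 and 12.3 CPM in NP. SLC2A4 had 2.83 and 3.75 CPM in MN-Ctrl, against 32.1 and 18.3 CPM in NP. The glucose carriers thus stood on both sides, at a log2 fold change of 8.19, SE 0.97 for SLC5A1 and a log2 fold change of -2.95, SE 0.47 for SLC2A4.

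Amino acid and peptide carriers gave 15 higher and 6 lower members of 44 tested, with 12 and 3 kept, and their median log2 fold change of 0.62 became -0.32 on library totals alone. SLC15A1, the apical carrier of small peptides, had 381 and 82.6 CPM in MN-Ctrl, against 0 and 0.356 CPM in NP. SLC6A19, a neutral amino acid carrier of the brush border, had 103 and 29.6 CPM in MN-Ctrl, against 0 and 0 CPM in NP, and was at least 466-fold higher. SLC7A2, an arginine carrier, was lower, with 4.46 and 2.62 CPM in MN-Ctrl, against 110.3 and 92.5 CPM in NP, a log2 fold change of -4.81, SE 0.46. Zinc carriers had 7 higher and 3 lower of 20 tested, with 3 and 3 kept, 3 higher without NP replicate 1, 4 higher without NP replicate 2, 7 lower without MN-Ctrl replicate 1 and 5 lower with the gene-length offset, and on library totals alone 2 were higher and 7 lower. Vitamin, nucleoside and organic ion carriers had 9 higher and 4 lower of 21 tested, with 7 and 1 kept, and their median log2 fold change of 0.33 became -0.47 on library totals alone. SLC39A4, the intestinal zinc importer, had 134 and 92.6 CPM in MN-Ctrl, against 2.55 and 2.23 CPM in NP. SLC39A8, a metal importer of the same family, had 9.91 and 10.3 CPM in MN-Ctrl, against 78.6 and 254 CPM in NP. SLC13A1, a sulfate carrier, had 262 and 122 CPM in MN-Ctrl, against 0 and 0.0891 CPM in NP. The zinc importer and the sulfate carrier were thus high in both MN-Ctrl libraries, and SLC39A8 was high in both NP libraries. SLC23A1, a vitamin C carrier, had 86.9 and 52.3 CPM in MN-Ctrl, against 2.24 and 1.6 CPM in NP. SLC19A3, a thiamine carrier, had 275 and 64.3 CPM in MN-Ctrl, against 0.306 and 0.178 CPM in NP. Over all 255 solute carriers tested of 323 in the files, 93 were higher and 34 lower in MN-Ctrl, with 61 and 22 kept, and on library totals alone 55 were higher and 56 lower. The mitochondrial carriers among them had 16 higher and 0 lower of 38 tested, with 8 higher without NP replicate 2 and 6 kept, and a median log2 fold change of 0.66 that became -0.06 on library totals alone.

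ABC transporters were called in both directions at shares near the background. ABCG5, of the paired sterol exporter of enterocytes, had 76.3 and 29.2 CPM in MN-Ctrl, against 1.12 and 0.624 CPM in NP. ABCG8, its partner, had 215 and 57.9 CPM in MN-Ctrl, against 0 and 0 CPM in NP, and was at least 958-fold higher. ABCA6, ABCA8 and ABCA9, of the lipid-transporting A subfamily, were lower. ABCA6 had 0.871 and 1.31 CPM in MN-Ctrl, against 44.3 and 68.1 CPM in NP. ABCA8 had 2.18 and 1.5 CPM in MN-Ctrl, against 45.1 and 76.5 CPM in NP. ABCA9 had 6.32 and 3.93 CPM in MN-Ctrl, against 73.7 and 122 CPM in NP. These A subfamily members stood at log2 fold changes of -4.23 to -5.71 (edgeR adjusted p of 4.91e-05 to 0.000103). Over 33 tested, 8 were higher and 6 lower, with 4 higher without NP replicate 1, 4 without NP replicate 2, and 3 and 5 kept, and the median log2 fold change of 0.09 became -0.72 on library totals alone.

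The brush border was represented by its enzymes and by its scaffold. Of 18 brush border hydrolases tested, 15 were higher and 1 lower in MN-Ctrl, with 14 and 1 kept. SI, the sucrase-isomaltase, had 401 and 102 CPM in MN-Ctrl, against 0.102 and 0.446 CPM in NP. MEP1B, a subunit of the meprin protease, had 692 and 339.9 CPM in MN-Ctrl, against 0.102 and 0.267 CPM in NP. These enzymes were low in both NP libraries, while ANPEP, aminopeptidase N, was found in both tissues, with 5549 and 1029 CPM in MN-Ctrl, against 56.1 and 92.6 CPM in NP. NAALAD2, a dipeptidase, was the member that was lower, with 0.762 and 0.375 CPM in MN-Ctrl, against 44.2 and 33.4 CPM in NP, a log2 fold change of -5.98, SE 0.63. Of 23 microvillus genes, all tested, 18 were higher and 0 lower, with 16 kept and a median log2 fold change of 6.64. By DESeq2, without the filter on low counts and on library totals alone, 1 microvillus gene was lower in each run. MYO1A, the myosin that ties the actin core of a microvillus to its membrane, had 425 and 66.1 CPM in MN-Ctrl, against 0 and 0 CPM in NP, and was at least 1723-fold higher. CDHR2, CDHR5, USH1C and ANKS4B form the adhesion complex between microvilli. CDHR2 had 688 and 104 CPM in MN-Ctrl, against 0.204 and 0.0891 CPM in NP. CDHR5 had 122 and 56.4 CPM in MN-Ctrl, against 0 and 0 CPM in NP. The cadherins of the complex were thus near 0 in NP, and so were its scaffolds. USH1C had 229 and 116 CPM in MN-Ctrl, against 0 and 0 CPM in NP. ANKS4B had 304 and 268 CPM in MN-Ctrl, against 0.306 and 0.356 CPM in NP. EZR, the ezrin that links actin to membrane in mesothelium as well, did not pass the test, with 1097 and 286 CPM in MN-Ctrl, against 1193 and 2819.8 CPM in NP. On library totals alone it was called lower. Without MN-Ctrl replicate 1 it was called lower, with an edgeR adjusted p of 0.00675.

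Lipid handling differed in absorption and synthesis. Of 15 genes for apolipoproteins and lipoprotein assembly, 11 were higher and 1 lower in MN-Ctrl, and all 12 kept their calls. APOB, the core protein of chylomicrons, had 136 and 65.8 CPM in MN-Ctrl, against 0.102 and 0.356 CPM in NP. MTTP, which loads lipid onto it, had 328 and 72 CPM in MN-Ctrl, against 1.83 and 1.6 CPM in NP. APOC3, of triglyceride-rich particles, had 91.5 and 147 CPM in MN-Ctrl, against 0 and 0 CPM in NP, and was at least 836-fold higher. APOA1 was found in both tissues, with 3877 and 4335 CPM in MN-Ctrl, against 742 and 628 CPM in NP, a log2 fold change of 2.58, SE 0.51 (edgeR adjusted p = 0.00281). The member that was lower was APOD, a lipocalin, with 8.06 and 9.56 CPM in MN-Ctrl, against 42.1 and 44.6 CPM in NP. PNLIPRP2, of the pancreatic lipase family, had 1163 and 721 CPM in MN-Ctrl, against 0.102 and 0 CPM in NP, beside pancreatic markers near 0. Of 23 genes of cholesterol synthesis, 16 were higher and 0 lower, with 14 kept and a median log2 fold change of 2.77. SQLE, squalene epoxidase, had 84.6 and 114 CPM in MN-Ctrl, against 6.42 and 6.24 CPM in NP. With the later enzymes MSMO1 and CYP51A1, the named genes of the pathway stood at log2 fold changes of 3.29 to 3.97 (edgeR adjusted p of 0.000181 to 0.00048). Calls for fatty acid oxidation genes depended on the scaling, with 3 higher and 1 lower on library totals alone. Fatty acid oxidation gave 13 higher and 1 lower of 26 tested, with 4 higher without NP replicate 1, 5 without NP replicate 2, and 3 and 0 kept.

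**Figure D3:**
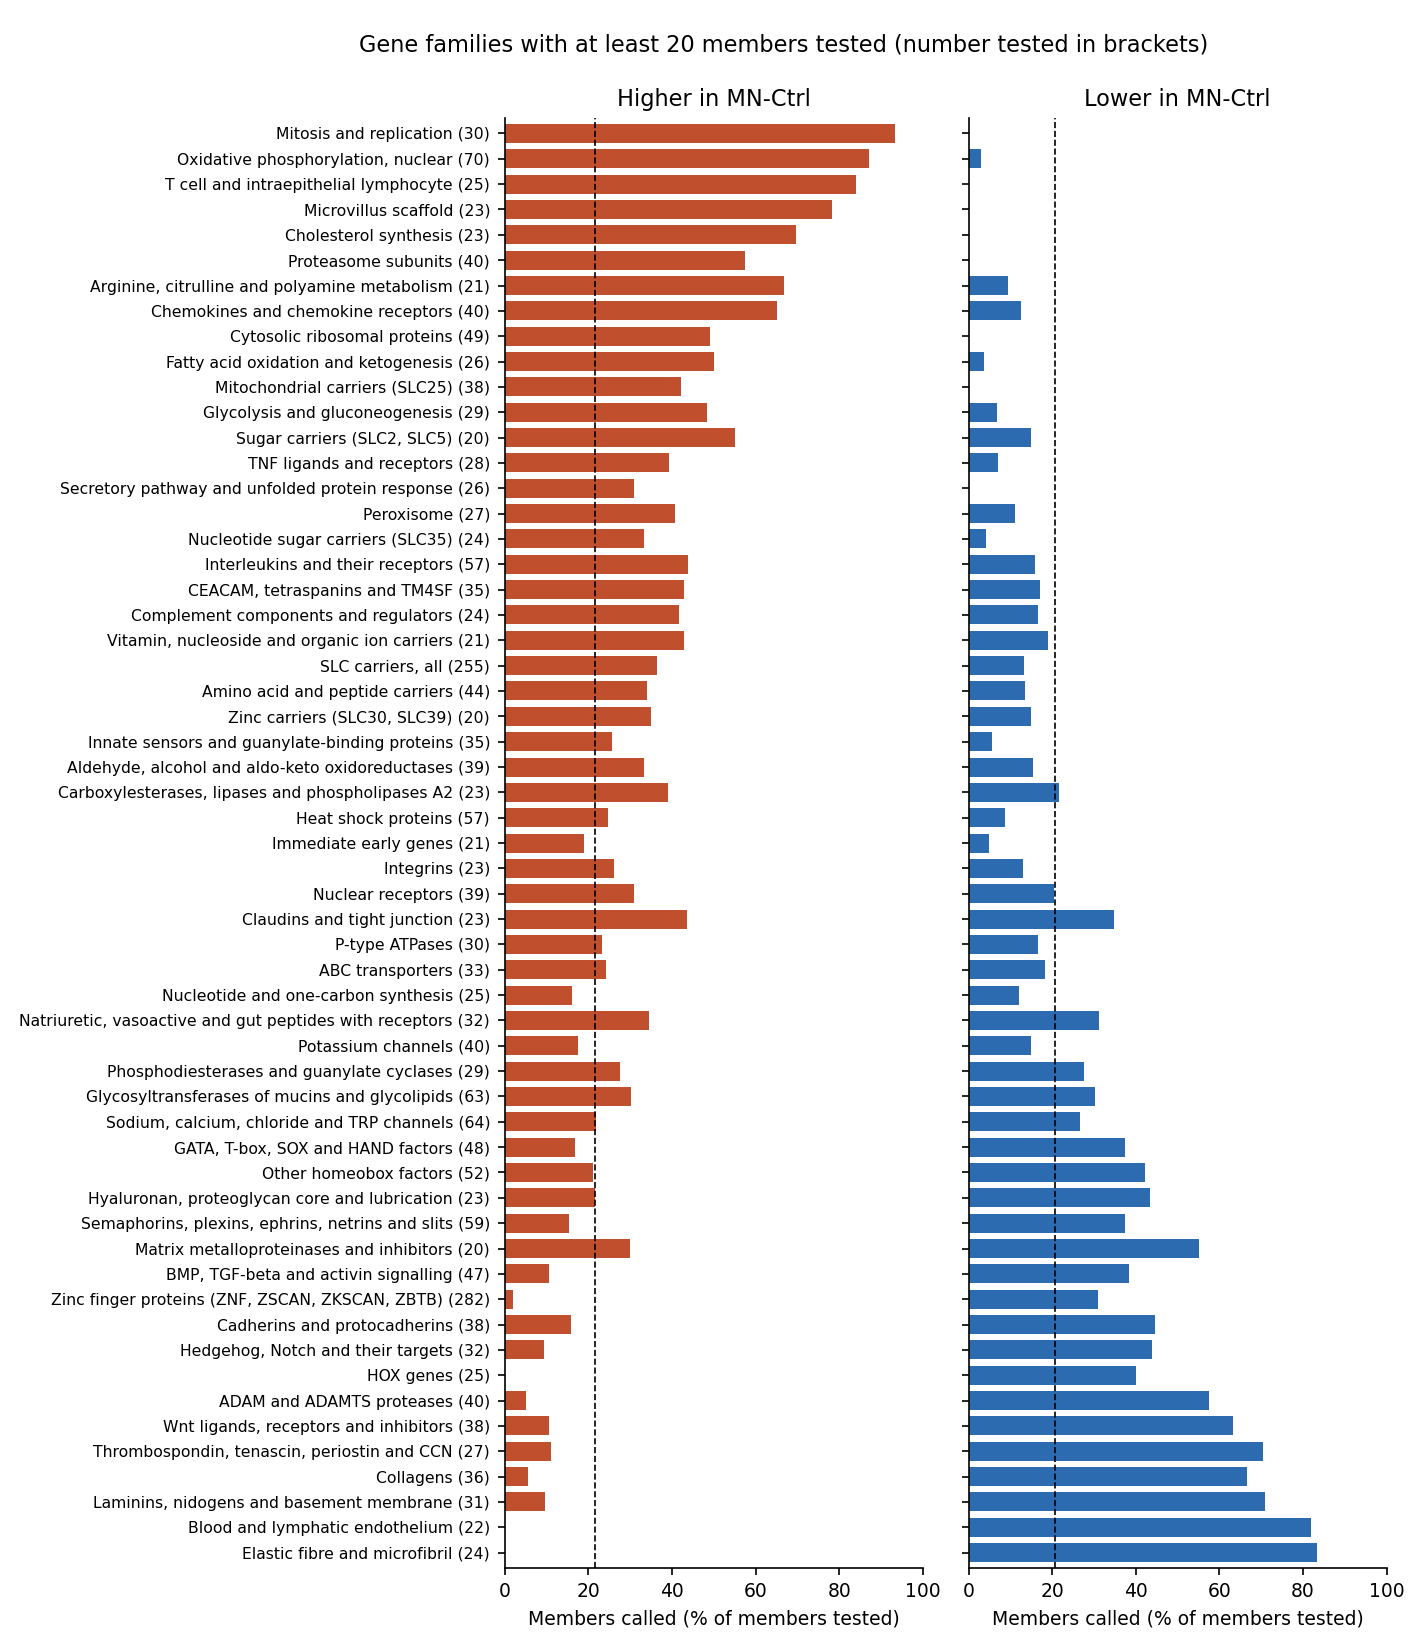
Percent of tested members called higher in MN-Ctrl (left) and called lower in MN-Ctrl (right) for 57 gene families with at least 20 members tested, with the number tested in brackets and dashed lines at the background of 21.6% and 20.6% over all genes. Mitosis, oxidative phosphorylation, T cell and microvillus genes stand at the top, and endothelial, elastic fibre, basement membrane and collagen genes at the bottom.

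Nitrogen metabolism held enzymes that were near 0 in peritoneum. Of 21 genes of arginine, citrulline and polyamine metabolism, 14 were higher and 2 lower in MN-Ctrl, with 10 and 2 kept. On library totals alone 9 were higher and 5 lower. The intestine makes citrulline in the mitochondria of enterocytes. NAGS, which makes the activator of the route, had 21.7 and 35.8 CPM in MN-Ctrl, against 0.306 and 0 CPM in NP. CPS1, the carbamoyl phosphate synthetase, had 448 and 88.6 CPM in MN-Ctrl, against 0.102 and 0.535 CPM in NP. OTC, which forms citrulline, had 429.7 and 432 CPM in MN-Ctrl, against 0.102 and 0.178 CPM in NP, a ratio of 3018, MN-Ctrl over NP, with a 95% counting interval of 1032 to 14640 (edgeR adjusted p = 1.68e-05). All of these were close to 0 in both NP libraries, whereas ASS1, which uses citrulline, had 971 and 1481 CPM in MN-Ctrl, against 29.2 and 22.8 CPM in NP. AGMAT, named for agmatine hydrolysis, had 121 and 224 CPM in MN-Ctrl, against 0 and 0 CPM in NP, and was at least 1207-fold higher. The members that were lower were NOS3, the endothelial nitric oxide synthase, and GATM, of creatine synthesis. NOS3 had 4.03 and 3.93 CPM in MN-Ctrl, against 33.2 and 22 CPM in NP. GATM had 26.4 and 19.3 CPM in MN-Ctrl, against 78.1 and 116 CPM in NP.

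Glycolysis and gluconeogenesis genes were more often higher than lower. KHK, ketohexokinase, had 529 and 1238 CPM in MN-Ctrl, against 36.7 and 32.3 CPM in NP. G6PC1, the glucose-6-phosphatase, had 49.5 and 17.6 CPM in MN-Ctrl, against 0 and 0 CPM in NP, and was at least 236-fold higher. KHK, which NP also expressed, stood at a log2 fold change of 4.68, SE 0.53. Of the 29 glycolysis and gluconeogenesis genes, 14 were higher and 2 lower, with 9 higher without NP replicate 1 and 9 and 1 kept, and on library totals alone 6 were higher and 5 lower.

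Detoxifying enzymes were called in both directions. CYP1A1, an oxidase induced through the aryl hydrocarbon receptor, had 843 and 466 CPM in MN-Ctrl, against 5.81 and 3.65 CPM in NP. CYP26B1, which degrades retinoic acid, had 0 and 0.187 CPM in MN-Ctrl, against 7.54 and 8.29 CPM in NP. Over 19 cytochrome P450 genes tested, 7 were higher and 3 lower, with 4 higher without NP replicate 2, 5 lower without MN-Ctrl replicate 1, and 4 and 1 kept, and on library totals alone 5 were higher and 5 lower. SULT1B1, a sulfotransferase, had 143 and 164 CPM in MN-Ctrl, against 0.408 and 0.0891 CPM in NP. MGST2, a microsomal glutathione transferase, had 180.3 and 821 CPM in MN-Ctrl, against 7.74 and 6.33 CPM in NP. GSTA4, another glutathione transferase, had 11.2 and 14.6 CPM in MN-Ctrl, against 67.7 and 84.7 CPM in NP. Of 15 conjugating enzymes, 9 were higher and 2 lower, with 7 and 2 kept. Nucleotide and one-carbon synthesis had 4 higher and 3 lower of 25 tested, shares below the background in both directions, with 7 lower without MN-Ctrl replicate 1, and 2 and 3 kept, and on library totals alone 2 were higher and 8 lower. Its lower members included enzymes of folate and serine metabolism. MTHFD1L, of mitochondrial folate metabolism, had 0.544 and 0.937 CPM in MN-Ctrl, against 26.2 and 20.8 CPM in NP. PSAT1, of serine synthesis, had 14.7 and 21.5 CPM in MN-Ctrl, against 142 and 137 CPM in NP.

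Nuclear genes of oxidative phosphorylation were mostly higher. Of 70 tested, 61 were higher and 2 lower in MN-Ctrl, with 44 and 1 kept, and their median log2 fold change was 2.94, or 2.53 with the gene-length offset. That median was 3.46 without MN-Ctrl replicate 1 and 1.69 without MN-Ctrl replicate 2. A span was known for 45 of the 70, and the offset does not adjust the rest for length. COX5A, a subunit of cytochrome oxidase, had 681 and 1237 CPM in MN-Ctrl, against 93.8 and 88 CPM in NP, a log2 fold change of 3.40, SE 0.48 (edgeR adjusted p = 0.000383). COX4I2, the alternative form of another subunit, was lower, with 3.05 and 1.69 CPM in MN-Ctrl, against 71.4 and 47.6 CPM in NP. The 12 tested genes of mitochondrial DNA had 2 higher, 0 lower and none kept, with 5 higher without MN-Ctrl replicate 2 and 6 lower without MN-Ctrl replicate 1, and their median log2 fold change of 0.25 became -0.47 on library totals alone. Mitochondrial transcripts took 1.20% and 0.56% of all counts in MN-Ctrl, against 1.09% and 0.75% in NP. Ribosomal protein genes depended on single libraries. Of 49 tested, 24 were higher and 0 lower, but 48 were higher without MN-Ctrl replicate 1, 4 without MN-Ctrl replicate 2, 2 without NP replicate 1, 0 without NP replicate 2 and 10 with the gene-length offset, and none was kept. By DESeq2 42 were higher, without the filter on low counts 42, with these 2 groups fitted alone 3 and on library totals alone 1. They took 2.25% and 8.01% of all counts in MN-Ctrl, against 3.75% and 2.85% in NP. Proteasome subunits gave 23 higher of 40, with 9 without NP replicate 1, 9 without NP replicate 2 and 8 kept. On library totals alone 8 proteasome subunits were higher and 0 lower. PSMB9, a subunit of the immunoproteasome, had 585 and 2135 CPM in MN-Ctrl, against 65.7 and 71 CPM in NP. PSMB8, another, had 610.5 and 1707 CPM in MN-Ctrl, against 94.4 and 110.3 CPM in NP.

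Nuclear receptors were called in both directions. Among 39 tested, 12 were higher and 8 lower in MN-Ctrl, with 9 and 5 kept. The shares were 30.8% higher and 20.5% lower, against 21.6% and 20.6% over all genes. On library totals alone 9 were higher and 13 lower. NR1I2, the xenobiotic receptor PXR, had 298 and 169 CPM in MN-Ctrl, against 0 and 0.0891 CPM in NP. NR1H4, the bile acid receptor, had 294 and 299 CPM in MN-Ctrl, against 1.83 and 0 CPM in NP. HNF4G, a relative of HNF4A, had 352 and 95.6 CPM in MN-Ctrl, against 0 and 0.356 CPM in NP. These receptors were high in both MN-Ctrl libraries. ESR1, oestrogen receptor alpha, was at the other end and had 0.871 and 0 CPM in MN-Ctrl, against 78.9 and 87.6 CPM in NP, a log2 fold change of -7.29, SE 0.70 (edgeR adjusted p = 4.89e-05).

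Homeobox factors were more often lower. Of 52 tested outside the HOX clusters, 11 were higher and 22 lower, with 8 and 14 kept. CDX2, the intestinal homeobox factor, had 50.6 and 87.5 CPM in MN-Ctrl, against 0.204 and 0.0891 CPM in NP. MEOX1, a factor of mesodermal tissue, had 0.218 and 0.187 CPM in MN-Ctrl, against 74 and 37.4 CPM in NP. Both MN-Ctrl libraries were close to 0 for MEOX1 and for PRRX1. PRRX1, of limb and craniofacial mesenchyme, had 0.218 and 0.749 CPM in MN-Ctrl, against 63 and 51.1 CPM in NP. HOX genes, which record position along the body axis, were lower or not called with all libraries, but not without MN-Ctrl replicate 1. Of 25 tested out of 34 in the files, 0 were higher and 10 lower, with 7 kept. Their median log2 fold change was -2.39 (-2.21 with genes at 0 in a group placed at the count floor). HOXA5 had 1.09 and 3.75 CPM in MN-Ctrl, against 87.8 and 108 CPM in NP. HOXA9 had 0.109 and 0.375 CPM in MN-Ctrl, against 17.2 and 12.3 CPM in NP. HOXC8 had 1.52 and 3.0 CPM in MN-Ctrl, against 26.2 and 27.8 CPM in NP. Both MN-Ctrl libraries lay far below both NP libraries for each of these.

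Of 48 GATA, T-box, SOX, HAND and related factors, 18 were lower and 8 higher, with 10 and 7 kept. Kruppel-like and SP factors had 8 lower and 1 higher of 19, with 4 lower without NP replicate 2, and 3 and 1 kept. Forkhead factors had 5 higher and 5 lower of 19, with 8 lower without MN-Ctrl replicate 1, 3 without MN-Ctrl replicate 2 and 3 without NP replicate 2, and 4 and 2 kept. The forkhead shares, 26.3% in each direction, compare with 21.6% higher and 20.6% lower over all genes. WT1, a factor of mesothelium, had 0 and 0.187 CPM in MN-Ctrl, against 27.7 and 25.3 CPM in NP. ELF3, an epithelial ETS factor, had 482 and 187 CPM in MN-Ctrl, against 3.57 and 0.98 CPM in NP. Factors of the goblet and secretory lineages were higher with ELF3. SPDEF, of goblet cells, had 34.1 and 49.8 CPM in MN-Ctrl, against 0.102 and 0 CPM in NP. ATOH1, of secretory lineages, had 47.7 and 27.2 CPM in MN-Ctrl, against 0 and 0 CPM in NP, and was at least 262-fold higher. Of 282 zinc finger genes tested, 87 were lower and 6 higher, with 39 and 2 kept. Without NP replicate 2 the lower members numbered 48, and the higher ones numbered 16 without MN-Ctrl replicate 1 and 12 without MN-Ctrl replicate 2. ZNF385D had 0 and 0 CPM in MN-Ctrl, against 61.1 and 62.3 CPM in NP, and was at least 299-fold lower. ZBTB16, also called PLZF, had 0.653 and 1.12 CPM in MN-Ctrl, against 83.9 and 81.5 CPM in NP.

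Surface and junction proteins separated paralogs. KRT20, a keratin of mature enterocytes, had 3569.6 and 1862 CPM in MN-Ctrl, against 0.815 and 1.51 CPM in NP. KRT7, a keratin of mesothelium and ducts, had 7.95 and 26.8 CPM in MN-Ctrl, against 159 and 359.9 CPM in NP. Of 23 claudin and tight junction genes, 10 were higher and 8 lower in MN-Ctrl, with 5 lower without NP replicate 2 and 8 and 5 kept, and the median log2 fold change of 0.13 became 0.00 on library totals alone. CLDN7 had 1762 and 1379 CPM in MN-Ctrl, against 3.26 and 3.74 CPM in NP. CLDN2, which forms pores for cations, had 172 and 69.5 CPM in MN-Ctrl, against 0 and 0.356 CPM in NP. CLDN1, a sealing claudin, had 0.871 and 1.12 CPM in MN-Ctrl, against 56.7 and 56.8 CPM in NP. Claudins with opposite calls thus stood side by side, and transmembrane proteins of the TM4SF type did the same. TM4SF4 had 363 and 962 CPM in MN-Ctrl, against 0 and 0.178 CPM in NP. TM4SF20 had 1240.1 and 1919 CPM in MN-Ctrl, against 1.02 and 0.891 CPM in NP. TM4SF1, of vessels and many tumours, had 17 and 18.9 CPM in MN-Ctrl, against 503 and 673 CPM in NP. Among the 35 CEACAM, tetraspanin and TM4SF genes, 15 were higher and 6 lower, with 10 and 5 kept, and on library totals alone 9 were higher and 9 lower. In the butyrophilin family, HHLA2 had 168 and 91.2 CPM in MN-Ctrl, against 0.102 and 0.0891 CPM in NP, and was higher like BTNL2. BTNL9 was lower, with 2.4 and 1.5 CPM in MN-Ctrl, against 106 and 73.8 CPM in NP. Of 38 cadherins and protocadherins, 6 were higher and 17 lower, with 3 higher without MN-Ctrl replicate 1, and 3 and 12 kept. CDH17, liver-intestine cadherin, had 862 and 222 CPM in MN-Ctrl, against 0.306 and 0.356 CPM in NP. MUC2, the gel-forming mucin of goblet cells, had 1244 and 292 CPM in MN-Ctrl, against 0.204 and 0.624 CPM in NP.

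Most small leucine-rich proteoglycans, collagens and elastic fibre genes were lower in MN-Ctrl. Small leucine-rich proteoglycans, which bind collagen and shape its fibrils, had 13 lower and 1 higher of 15 tested, with 12 and 0 kept and a median log2 fold change of -6.13. Among these are 8 that lie in runs of neighbours on chromosomes 5 and 3 of the pig genome, by the RefSeq table of Sscrofa11.1. DCN, LUM, KERA and EPYC follow each other at chr5:91678601-91877779. OGN, OMD, ASPN and ECM2 follow each other at chr3:42116521-42243746. All 8 were lower. DCN, decorin, had 306 and 374 CPM in MN-Ctrl, against 8965 and 14188 CPM in NP. LUM, lumican, had 163 and 113 CPM in MN-Ctrl, against 1025 and 1069 CPM in NP. KERA, known from the cornea, had 0.109 and 0.562 CPM in MN-Ctrl, against 275 and 321 CPM in NP. Within that run the log2 fold change was -5.09 (SE 0.63) for DCN, -2.93 (SE 0.49) for LUM and -9.97 (SE 0.98) for KERA, and EPYC had no count in MN-Ctrl. OGN had 13 and 8.62 CPM in MN-Ctrl, against 1011 and 1057 CPM in NP. OMD had 1.63 and 3.0 CPM in MN-Ctrl, against 411 and 553 CPM in NP. ASPN had 3.38 and 2.25 CPM in MN-Ctrl, against 599 and 491 CPM in NP. The second run, with ECM2, stood at log2 fold changes of -6.19 to -7.73 (edgeR adjusted p of 1.79e-05 to 6.09e-05). FMOD, fibromodulin, lies outside these runs, on chromosome 9, and had 43.6 and 15.9 CPM in MN-Ctrl, against 2219 and 2093 CPM in NP. BGN, biglycan, had 1.74 and 3.75 CPM in MN-Ctrl, against 238 and 134 CPM in NP. The member that was higher was TSKU, with 386 and 136 CPM in MN-Ctrl, against 66.8 and 41 CPM in NP, a log2 fold change of 2.28, SE 0.60. Its edgeR adjusted p was 0.0122 with all libraries and 0.0965 without NP replicate 2. TSKU lost its call on library totals alone. PODN did not pass the test, with 356 and 593 CPM in MN-Ctrl, against 515 and 497 CPM in NP.

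**Figure D4:**
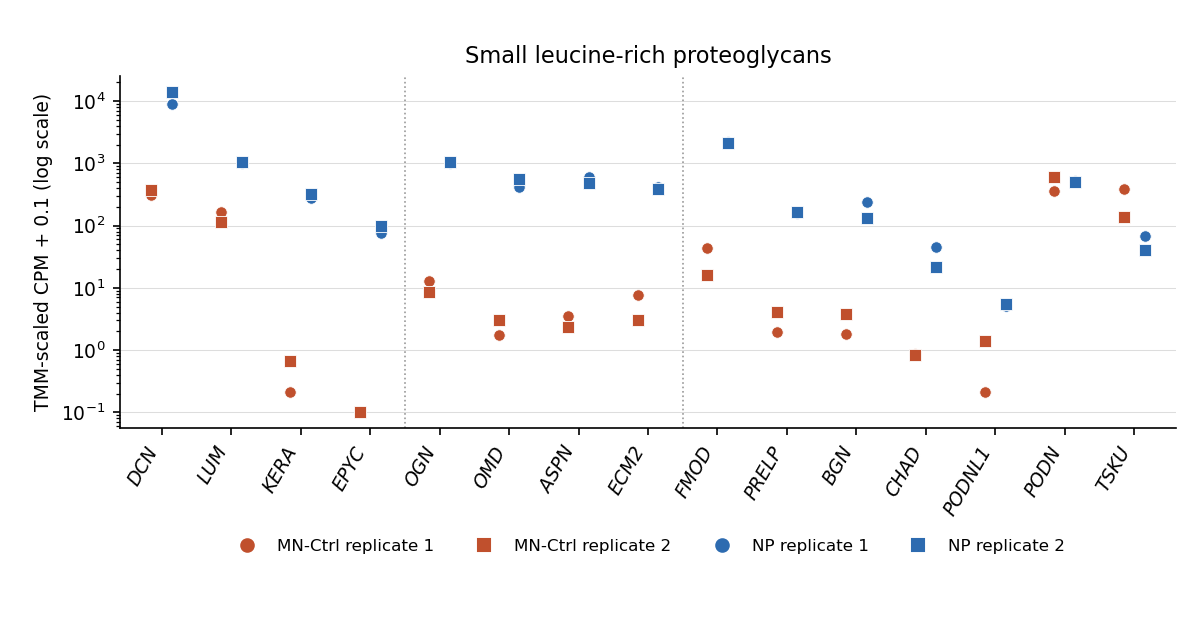
Level of the 15 tested small leucine-rich proteoglycans in each library, as TMM-scaled CPM plus 0.1 on a log axis, MN-Ctrl in orange left of NP in blue, ordered as the run on chromosome 5, the run on chromosome 3 and the rest. Both MN-Ctrl points lie below both NP points for 13 genes, TSKU is reversed and PODN has libraries of the groups at similar levels.

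Fibrillar and elastic matrix differed in the same direction. Of 36 collagens tested, 24 were lower and 2 higher in MN-Ctrl, with 18 and 1 kept. COL1A2, of the main fibrillar collagen, had 772 and 252 CPM in MN-Ctrl, against 18528 and 20529 CPM in NP. COL14A1, which coats fibrils, had 15.5 and 13.3 CPM in MN-Ctrl, against 832 and 977 CPM in NP. COL8A1, a short-chain collagen, had 4.68 and 2.44 CPM in MN-Ctrl, against 1063 and 884 CPM in NP. COL17A1, the transmembrane collagen of hemidesmosomes, was higher, with 73 and 31.7 CPM in MN-Ctrl, against 0.611 and 1.43 CPM in NP. Of 24 elastic fibre and microfibril genes, all tested, 20 were lower and 0 higher, with 19 kept and a median log2 fold change of -4.43. ELN, elastin, had 0.871 and 0.749 CPM in MN-Ctrl, against 140.3 and 70.9 CPM in NP. FBN1, fibrillin, had 14.3 and 7.12 CPM in MN-Ctrl, against 275 and 178 CPM in NP. LTBP2, of the latent TGF-beta binding proteins, had 1.96 and 0.562 CPM in MN-Ctrl, against 457 and 419 CPM in NP. The named elastic fibre genes stood at log2 fold changes of -4.39 to -8.33 (edgeR adjusted p of 1.79e-05 to 8.80e-05). Basement membrane genes gave 22 lower and 3 higher of 31, with 14 lower without NP replicate 2, and 11 and 3 kept. TINAG and LAMB3, an epithelial laminin chain, were among the higher ones. LAMB3 had 51.2 and 15.6 CPM in MN-Ctrl, against 2.24 and 3.12 CPM in NP. LAMB2, a chain of vessel and muscle laminins, had 3.38 and 0.562 CPM in MN-Ctrl, against 90.4 and 97.5 CPM in NP. In the thrombospondin, tenascin and CCN group 19 were lower and 3 higher of 27, with 15 and 2 kept. SPARC, a collagen-binding glycoprotein, had 460.1 and 181 CPM in MN-Ctrl, against 18947 and 19867 CPM in NP. TNN, tenascin-N, was higher, with 60.1 and 27 CPM in MN-Ctrl, against 0.611 and 0.178 CPM in NP.

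Matrix proteases divided. MMP2, the gelatinase of stromal cells, had 30.1 and 16.9 CPM in MN-Ctrl, against 914 and 1152 CPM in NP. MMP1, interstitial collagenase, had 597 and 546 CPM in MN-Ctrl, against 2.75 and 4.01 CPM in NP. MMP9, the gelatinase of leukocytes, had 69.6 and 32.2 CPM in MN-Ctrl, against 1.12 and 0.624 CPM in NP. MMP2 was high in both NP libraries, and the collagenase and the leukocyte gelatinase were high in both MN-Ctrl libraries. Of the 20 metalloproteinases and inhibitors, 6 were higher and 11 lower in MN-Ctrl, with 6 and 8 kept. The ADAM and ADAMTS proteases gave 23 lower and 2 higher of 40, with 6 higher without MN-Ctrl replicate 2, and 14 and 1 kept. ADAMTS2, which processes procollagen, had 7.4 and 3.56 CPM in MN-Ctrl, against 395 and 342 CPM in NP. Among 17 serpins 5 were lower and 4 higher, with 4 and 3 kept. Those shares, 29.4% and 23.5%, compare with 20.6% lower and 21.6% higher over all genes. SERPINF1, also called PEDF, had 29.6 and 45.5 CPM in MN-Ctrl, against 2598 and 3552 CPM in NP. SERPINB1, an inhibitor of neutrophil proteases, had 307 and 316 CPM in MN-Ctrl, against 42 and 31.8 CPM in NP.

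Wnt and BMP signalling genes were more often lower than higher. Of 38 Wnt genes tested, 24 were lower and 4 higher in MN-Ctrl, with 16 and 3 kept and a median log2 fold change of -2.66 (-2.57 with genes at 0 in a group placed at the count floor). SFRP4, a secreted Wnt inhibitor, had 5.44 and 6.0 CPM in MN-Ctrl, against 736 and 826 CPM in NP. DKK2, a ligand of Wnt co-receptors, had 0.218 and 1.31 CPM in MN-Ctrl, against 409 and 552 CPM in NP. LGR5, an R-spondin receptor known from intestinal crypt stem cells, was lower too, with 1.09 and 0.375 CPM in MN-Ctrl, against 118 and 289.7 CPM in NP, a log2 fold change of -7.99, SE 0.72 (edgeR adjusted p = 3.91e-05). Each of these was low in both MN-Ctrl libraries. FZD5, a Frizzled receptor of gut epithelium, was higher, with 319 and 92.6 CPM in MN-Ctrl, against 16.8 and 21.7 CPM in NP. Of 47 BMP, TGF-beta and activin genes, 18 were lower and 5 higher, with 2 higher without NP replicate 1, and 13 and 2 kept. CHRDL1, a BMP antagonist, had 15.5 and 12.6 CPM in MN-Ctrl, against 435 and 592 CPM in NP. TGFBR3, the betaglycan co-receptor, had 7.4 and 4.5 CPM in MN-Ctrl, against 215 and 267 CPM in NP. BMP5 itself was higher, with 56.8 and 59 CPM in MN-Ctrl, against 3.16 and 1.43 CPM in NP.

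Growth factor receptors differed by member. FGFR3 had 31.5 and 24 CPM in MN-Ctrl, against 1.32 and 0.713 CPM in NP. FGFR4, the receptor for gut-derived FGF hormones, had 13.9 and 11.2 CPM in MN-Ctrl, against 0 and 0.713 CPM in NP. FGFR1 had 0.871 and 3.0 CPM in MN-Ctrl, against 31.6 and 26.7 CPM in NP. FGFR3 and FGFR4 were thus higher and FGFR1 lower, and FGF2, a ligand of FGFR1, had 0 and 0 CPM in MN-Ctrl, against 8.35 and 7.22 CPM in NP. Of 18 FGF genes 5 were higher and 7 lower, with 5 and 4 kept. Of 14 EGF receptor family genes and ligands, 5 were higher and 3 lower, with 4 and 1 kept. TGFA had 16.9 and 14.4 CPM in MN-Ctrl, against 0.306 and 0.0891 CPM in NP. AREG, amphiregulin, had 39.9 and 69.3 CPM in MN-Ctrl, against 0.102 and 0.446 CPM in NP. EGFR, their receptor, was lower with all libraries, with 26.2 and 8.99 CPM in MN-Ctrl, against 48.6 and 96.3 CPM in NP, and its edgeR adjusted p was 0.0123, or 0.122 without NP replicate 2. Of 14 genes of the IGF system, 8 were lower and 1 higher, with 6 and 0 kept. IGFBP5, a binding protein, had 14.7 and 13.7 CPM in MN-Ctrl, against 1012 and 1206 CPM in NP. IGF1 itself did not pass the test, with 15.7 and 35 CPM in MN-Ctrl, against 21 and 24.2 CPM in NP. In the Hedgehog and Notch group 14 were lower and 3 higher of 32, with 9 lower without NP replicate 2, and 8 and 2 kept. IHH, the Hedgehog ligand of gut epithelium, had 20.8 and 22.1 CPM in MN-Ctrl, against 0 and 0.0891 CPM in NP. CDON, a Hedgehog co-receptor, had 0.327 and 0 CPM in MN-Ctrl, against 54.2 and 64.8 CPM in NP. NOTCH3, of vessel walls, had 2.07 and 1.12 CPM in MN-Ctrl, against 62.2 and 56.3 CPM in NP.

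Peptide hormones and their receptors were found on both sides. Of 32 tested, 11 were higher and 10 lower in MN-Ctrl, with 11 and 8 kept, and the median log2 fold change of 0.85 became -0.13 on library totals alone. GCG, proglucagon, had 285 and 657 CPM in MN-Ctrl, against 0.509 and 0 CPM in NP. NTS, neurotensin, had 98.5 and 395 CPM in MN-Ctrl, against 0.204 and 0.356 CPM in NP. SST, somatostatin, had 42.7 and 106 CPM in MN-Ctrl, against 0 and 0.178 CPM in NP. These enteroendocrine products were high in both MN-Ctrl libraries. NPPB, a natriuretic peptide, had 0 and 0 CPM in MN-Ctrl, against 20.7 and 28.1 CPM in NP, and was at least 118-fold lower. NPR1, its receptor, had 5.66 and 1.69 CPM in MN-Ctrl, against 123 and 152 CPM in NP. VIPR1 and VIPR2, receptors for the same vasoactive peptide, had opposite calls. VIPR1 had 85.6 and 36.5 CPM in MN-Ctrl, against 0.917 and 1.34 CPM in NP. VIPR2 had 0.109 and 0.187 CPM in MN-Ctrl, against 158 and 116 CPM in NP. PTGIS, prostacyclin synthase, was lower, with 2.72 and 4.31 CPM in MN-Ctrl, against 406 and 508 CPM in NP. HPGD, which degrades prostaglandins, was higher, with 85.9 and 112 CPM in MN-Ctrl, against 12.1 and 16.8 CPM in NP. Ion channels were called in both directions. Potassium channels had 7 higher and 6 lower of 40, or 17.5% and 15%, below the 21.6% and 20.6% over all genes. Sodium, calcium, chloride and TRP channels had 14 higher and 17 lower of 64, or 21.9% and 26.6%, against the same background. The kept calls were 5 and 5 of the potassium channels and 7 and 10 of the others, where 8 were higher and 11 lower without NP replicate 1. On library totals alone 4 potassium channels were higher and 11 lower, and of the others 8 and 23. CFTR, the chloride channel, had 35.8 and 14.8 CPM in MN-Ctrl, against 0.306 and 0.267 CPM in NP. KCNN4, a calcium-gated potassium channel, had 44.8 and 50.2 CPM in MN-Ctrl, against 0.713 and 0.0891 CPM in NP. PIEZO2, a stretch-gated channel, was lower, with 6.42 and 6.75 CPM in MN-Ctrl, against 155 and 91.4 CPM in NP.

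Immune families differed in how many members were higher in MN-Ctrl, beside the T, B and plasma cell markers given above. Of 40 chemokines and receptors tested, 26 were higher and 5 lower, with 21 and 4 kept and a median log2 fold change of 2.76. CCL25, the chemokine of small intestinal epithelium, had 2189 and 3530.2 CPM in MN-Ctrl, against 10.1 and 6.86 CPM in NP. CCR9, its receptor on gut-homing lymphocytes, had 35.2 and 31.1 CPM in MN-Ctrl, against 0 and 0.178 CPM in NP. The CCL25 ligand stood at a log2 fold change of 8.40, SE 0.70, and its receptor was close to 0 in NP. ACKR1, a chemokine scavenger of venules, was lower, with 12 and 11.2 CPM in MN-Ctrl, against 305 and 227 CPM in NP. Of 25 genes of T cells and intraepithelial lymphocytes, 21 were higher and 0 lower, with 18 kept. Of 9 MHC class II presentation genes 3 were higher and 0 lower, with 1 kept and with 6 higher without MN-Ctrl replicate 1, 6 without MN-Ctrl replicate 2 and 6 by DESeq2. Of 35 innate sensors and guanylate-binding proteins 9 were higher and 2 lower, near the background of 21.6% for higher genes, with 15 higher without MN-Ctrl replicate 2, and 6 and 0 kept, and on library totals alone 4 were higher and 6 lower. The symbol GZMA is carried by more than 1 gene of the files, each counted as a member. CD3D, of the T cell receptor complex, had 91.3 and 171 CPM in MN-Ctrl, against 4.38 and 6.68 CPM in NP. Of 57 interleukins and receptors, 25 were higher and 9 lower, with 15 higher without NP replicate 1, 16 without NP replicate 2, and 11 and 7 kept, and on library totals alone 10 were higher and 14 lower. IL18 had 62.7 and 134 CPM in MN-Ctrl, against 8.15 and 5.79 CPM in NP.

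Of 16 mucosal antimicrobial and immunoglobulin secretion genes, 8 were higher and 3 lower, with 6 and 1 kept. REG4, a regenerating family lectin, had 2424 and 10009 CPM in MN-Ctrl, against 1.53 and 1.51 CPM in NP. BPI, a bactericidal protein, had 943 and 149.9 CPM in MN-Ctrl, against 0 and 0.178 CPM in NP. PIGR, which carries immunoglobulin across epithelium, had 4605 and 1207 CPM in MN-Ctrl, against 3.87 and 4.37 CPM in NP. These were high in both MN-Ctrl libraries. LCN2, an iron-withholding lipocalin, was the member that was lower with its call kept, with 7.4 and 21 CPM in MN-Ctrl, against 1629 and 2636 CPM in NP, a log2 fold change of -7.24, SE 0.79 (edgeR adjusted p = 9.28e-05). Complement genes gave 10 higher and 4 lower of 24, with 4 higher without NP replicate 1, 8 lower without MN-Ctrl replicate 1, and 4 and 4 kept, and the median log2 fold change of 0.06 became -0.62 on library totals alone. C5 had 270.3 and 58.5 CPM in MN-Ctrl, against 1.22 and 1.6 CPM in NP. SERPING1, the inhibitor of the first component, had 418 and 222 CPM in MN-Ctrl, against 4112 and 5728 CPM in NP. Cell cycle genes were also higher. Of 30 tested, 28 were higher and 0 lower, with 18 kept and a median log2 fold change of 3.35. On library totals alone 17 were higher and 0 lower. CCNB1, a mitotic cyclin, had 83.8 and 108 CPM in MN-Ctrl, against 4.18 and 0.98 CPM in NP. BUB1B, a spindle checkpoint kinase, had 41.6 and 21.4 CPM in MN-Ctrl, against 0.917 and 1.07 CPM in NP.

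Of the 83 families read, 69 had members called in both directions, 11 in the higher direction alone and 3 in the lower direction alone. Over all genes 21.6% were higher and 20.6% lower. At these shares a family of many members can hold calls in both directions without differing from other genes. Pairs within a family on opposite sides were picked out after their values were seen. ALDH1A1, a retinaldehyde dehydrogenase like ALDH1A2, had 1406 and 878 CPM in MN-Ctrl, against 33.1 and 21.3 CPM in NP. The log2 fold change was 5.39 (SE 0.64) for ALDH1A1 and -7.23 (SE 0.46) for ALDH1A2. Between the receptors of vasoactive peptide, VIPR1 stood at 5.74 (SE 0.65) and VIPR2 at a ratio of 985, NP over MN-Ctrl, with a 95% counting interval of 272 to 8134. Between FGF receptors the values were 4.77 (SE 0.50) for FGFR3 and -3.99 (SE 0.61) for FGFR1. Claudins gave 8.80 (SE 0.68) for CLDN7 and -5.84 (SE 0.54) for CLDN1. Metalloproteinases gave 7.39 (SE 0.89) for MMP1 and -5.45 (SE 0.54) for MMP2. Both members kept their calls in each of these pairs.

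**Figure D5:**
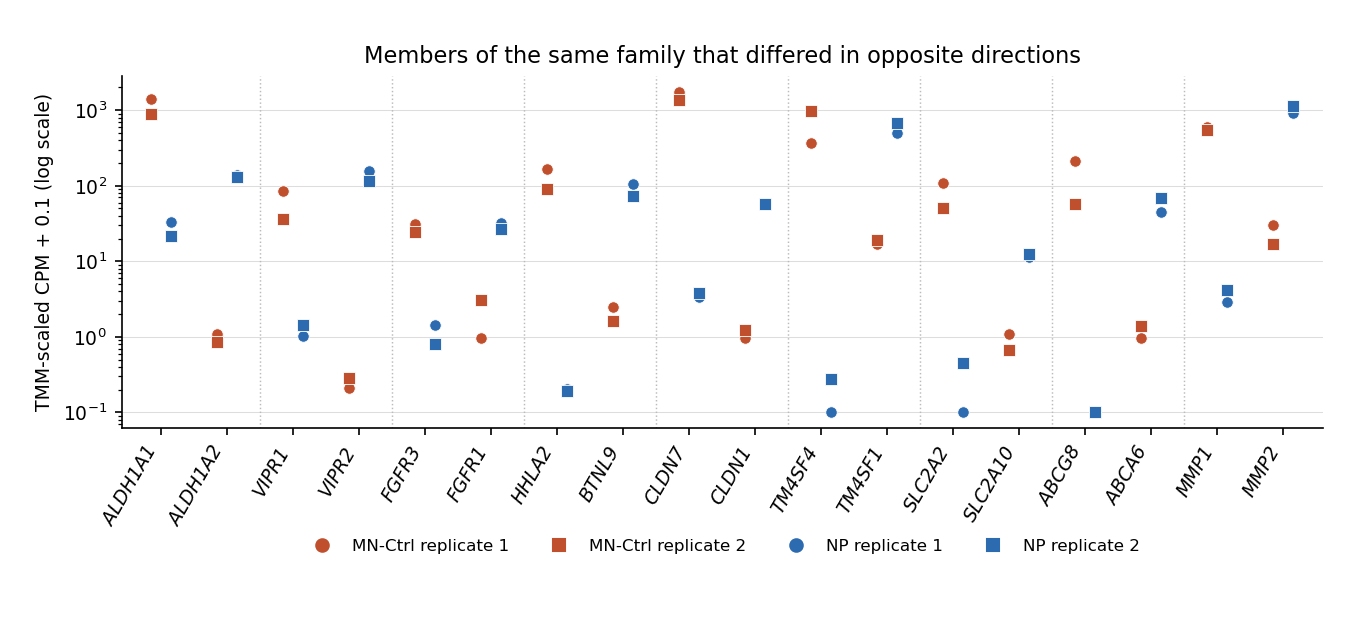
Level of 9 pairs from the same gene family in each library, as TMM-scaled CPM plus 0.1 on a log axis, MN-Ctrl in orange left of NP in blue. In each pair the first gene lies higher in both MN-Ctrl libraries than in either NP library, and the second lies lower.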

How the data were processed

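Raw counts per Ensembl gene for 8 libraries were used as deposited, and they hold whole numbers. The tools named in the submitters' processing notes are HTSeq 0.11.1, HISAT2 and Trim Galore, with the build Sscrofa11.1. RNA was made into cDNA with Smart-seq2, given a TruSeq preparation and read on an Illumina HiSeq X instrument, per the labels' protocols. The annotation release and strand setting are not given in the sources used here, so reads of overlapping genes, antisense genes and near-identical copies cannot be told apart. Symbols and spans came from RefSeq on Sscrofa11.1 and a table of Ensembl names, and 15029 of 31907 genes had a symbol.

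In R 4.3.3, genes passing filterByExpr over the 4 groups of 2 libraries (16549 genes) were scaled by TMM and fitted with edgeR 4.0.16, a robust quasi-likelihood fit with 4 residual degrees of freedom and a common dispersion of 0.146. MN-Ctrl was tested against NP, with Benjamini-Hochberg adjustment over all genes. Folds against a group with no count use a floor of 3 counts over its libraries, intervals are exact at 95%, and both cover counting error only. Spans were known for 93.6% of tested genes with a symbol and 70.4% of all tested genes, and the gene-length offset is a loess curve (span 0.4) of log2 level on log2 span per library. Genes without a known span were given the median of that curve, so the offset does not adjust them for length.

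The comparison, the markers and the 83 families were chosen with earlier results of these data known. Genes were eligible for naming as markers, among the 14 largest changes per direction that averaged at least 5 CPM with libraries not overlapping, as the 5 called members of a family with the smallest p or its most abundant member, or in a family of 15 or fewer. CCR9, CFTR, COL17A1, FGFR4, FZD5, GATM, LAMB3, NOS3, NR1H4, SLC2A4, SLC51A, SQLE, TCF21 and VIPR1 fall outside that rule and were chosen after their values were seen. Alternatives were the gene-length offset, a replicate block with and without it, each library left out, these 2 groups alone, no filter, library totals alone, and the test or the size factors of DESeq2 1.42.0. In simulated MN-Ctrl and NP counts over 16549 genes with 200 changed, 146 genes were called, 17 of them wrongly, and 37 of 100 genes changed 4-fold and 92 of 100 changed 16-fold were recovered. The share called wrongly, 17 of 146, was above the threshold of 0.05. The simulation had no trend with span and few changed genes, while 42.3% of genes were called in the data, so its rates may not carry over. Some genes are not reported here.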

Additional observations from a re-analysis of the deposited data

How the results depend on the processing

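The count of called genes was 6993, and it lay between 6287 and 7647 under the replicate block (6400 genes), the block with the gene-length offset, the offset, DESeq2, its size factors, library totals alone and no filter on low counts. With the 2 groups alone, which leaves fewer libraries to estimate the spread, 4639 genes were called, 2409 higher and 2230 lower in MN-Ctrl. On library totals alone 1725 were higher and 5205 lower. Leaving out 1 library gave 4672 to 8328 called genes, 2250 to 4232 of them higher and 2307 to 4096 lower, with the fewest calls without NP replicate 1. Called family members numbered 1396 of 2562 and lay between 1056 and 1526 in every alternative run. No called gene of the text reversed its direction. IGF1 and PODN, which were not called, did reverse, IGF1 at -0.94 on library totals alone and between -0.44 and 0.63 with 1 MN-Ctrl replicate left out, and PODN at 0.01 with DESeq2 or its size factors and between -0.42 and 0.23 with 1 MN-Ctrl replicate left out. PODN and EZR were called lower on library totals alone, and APOA1 had an edgeR adjusted p of 0.0525 with the 2 groups alone. Over the families, counts in 1 direction moved by more than 1.5 times 50 times on library totals alone, 22 times with the 2 groups alone and 6 times with the offset. Same-numbered replicates share no source in the labels, and their deviations correlated at r = -0.03. Depth limits what can be said of genes near 0. On the TMM scale used for all levels, 3 counts in a library equal 0.327 and 0.562 CPM in MN-Ctrl, against 0.306 and 0.267 CPM in NP. Before TMM scaling they equal 0.274 and 0.252 CPM in MN-Ctrl, against 0.378 and 0.324 CPM in NP.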

Other observations

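Several of the genes furthest apart between the groups were not described above. TMC5, a transmembrane channel-like protein, had 492 and 176 CPM in MN-Ctrl, against 0 and 0 CPM in NP. CA7, a carbonic anhydrase, had 241 and 336 CPM in MN-Ctrl, against 0 and 0 CPM in NP. LBP, which binds bacterial lipopolysaccharide, had 248 and 161 CPM in MN-Ctrl, against 0 and 0 CPM in NP. In MN-Ctrl, TMC5 was at least 2344-fold higher, CA7 at least 2023-fold higher and LBP at least 1437-fold higher, and RAB17, a small GTPase of polarised epithelium, with 66.5 and 171 CPM in MN-Ctrl, against 0 and 0 CPM in NP, was at least 832-fold higher. On the other side, PON3, a lactonase, had 0 and 0 CPM in MN-Ctrl, against 21.7 and 37.2 CPM in NP. FMO2, a flavin monooxygenase, had 0 and 0 CPM in MN-Ctrl, against 22.2 and 29 CPM in NP. EBF2, a factor of the fat cell lineage, had 0 and 0 CPM in MN-Ctrl, against 17.7 and 15 CPM in NP. These were at 0 in both MN-Ctrl libraries. In MN-Ctrl PON3 was at least 142-fold lower, FMO2 at least 124-fold lower and EBF2 at least 79.1-fold lower. TNMD, tenomodulin, differed between the NP libraries themselves, with 0 and 0 CPM in MN-Ctrl, against 94 and 4.01 CPM in NP, and its call was lost without MN-Ctrl replicate 1 and without MN-Ctrl replicate 2.

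Axon guidance genes were more often lower than higher in MN-Ctrl, with 22 lower and 9 higher of 59 semaphorin, plexin, ephrin, netrin and SLIT genes, 4 higher without NP replicate 2, and 16 and 4 kept. SLIT2, a secreted repellent, had 8.82 and 5.81 CPM in MN-Ctrl, against 439.9 and 682 CPM in NP. EPHA1, an ephrin receptor, had 20.9 and 6.56 CPM in MN-Ctrl, against 0 and 0 CPM in NP, and was higher. Urothelial genes divided, with 5 higher and 2 lower of 15 and with 4 and 1 kept. UPK1B, a tetraspanin of the urothelial plaque, had 4.68 and 10.5 CPM in MN-Ctrl, against 309 and 573 CPM in NP, a log2 fold change of -5.88, SE 0.87. UPK3A, another plaque protein, had 40.5 and 103 CPM in MN-Ctrl, against 6.83 and 4.81 CPM in NP, a log2 fold change of 3.62, SE 0.62. These plaque proteins had opposite calls. Enzymes of mucin glycosylation included FUT2, the secretor fucosyltransferase, with 183 and 95.4 CPM in MN-Ctrl, against 8.56 and 5.08 CPM in NP. ST6GALNAC1, a sialyltransferase, had 203 and 96.7 CPM in MN-Ctrl, against 0.509 and 0 CPM in NP. Both named enzymes were higher, but the median log2 fold change of the glycosyltransferase family was -0.13. On library totals alone 10 of its members were higher and 24 lower. Of 63 glycosyltransferases, 19 were higher and 19 lower, with 12 higher and 11 lower without NP replicate 1, 12 lower without NP replicate 2, and 11 and 6 kept.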
